A study of Capra hircus with 20 samples.

Results

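Amino acid transporters of the plasma membrane were examined in goat cells that the study names preadipocytes and in cells obtained from them by induction. The group held 9 genes, SLC3A2, SLC7A5, SLC7A11, SLC7A1, SLC1A4, SLC1A5, SLC38A1, SLC38A2 and SLC6A9, chosen by name from the mRNA table, and the values of a gene's transcripts were summed. These 9 of 20587 gene symbols had 25 of the 43766 mRNA transcripts, and all 9 averaged 1 FPKM or more across the libraries, as did the 11432 genes that were tested. FPKM is a number of fragments divided by transcript length and by the reads of the library. It is used to compare genes and libraries, but comparison between libraries is limited where their FPKM sums and main transcripts differ, as they did here. The files hold no counts, and how many fragments stand behind one value is not known.

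The cells came from 5 male Jianzhou Daer goats (Capra hircus) aged 7 days. Intramuscular preadipocytes (IMPA) were isolated from the longissimus dorsi muscle and subcutaneous preadipocytes (SPA) from subcutaneous fat, and both were used at passage 3. Intramuscular adipocytes (IMA) and subcutaneous adipocytes (SA) were the same kinds of cells after 3 days in medium with oleic acid, while the preadipocytes were taken on day 0. Each of the 4 groups had 5 libraries of total RNA, numbered 1 to 5. The sources used here do not say which goat stands behind a number, so the p-values measure the spread between these libraries.

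Cells cannot make essential amino acids and take them up through membrane carriers. SLC3A2 is the heavy chain that brings several SLC7 light chains to the cell surface. With SLC7A5 (LAT1) it exchanges leucine and other large neutral amino acids, and with SLC7A11 (xCT) it exchanges cystine for glutamate, which supplies cysteine for glutathione. SLC7A1 (CAT1) carries arginine and lysine. SLC1A4 (ASCT1) and SLC1A5 (ASCT2) exchange small neutral amino acids such as alanine and serine, and SLC1A5 also exchanges glutamine. SLC38A1 and SLC38A2 (SNAT1 and SNAT2) carry glutamine and alanine with sodium, and SLC6A9 (GlyT1) carries glycine. Several of these genes are known targets of ATF4, the transcription factor of the amino acid response.

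The libraries' FPKM sums lay between 527426 and 596669, and a single newly assembled lncRNA held 19.95% to 29.07% of each sum. The share of reads mapped to the genome that the study states separates the stages in both depots, and the depots at both stages. It therefore cannot be told apart from induction or from depot. The GC content that the study states was higher in every IMPA library than in any library of the other groups. The part of either measure in the results below was not tested. Of the 8 skeletal muscle markers chosen, 7 were in the table. Their summed level was 1992 to 2288 FPKM in IMPA and 6854 to 7268 FPKM in IMA. It was 5.73 to 15.9 FPKM in SPA and 6.77 to 8.03 FPKM in SA, where MYOD1 and CKM were at or near 0. From IMPA to IMA the mean of MYOG went from 649 to 736 FPKM and that of MYLPF from 1061 to 4534 FPKM. The mean of MYOD1 fell from 43.2 to 26.1 FPKM. The intramuscular libraries thus carried much skeletal muscle RNA, and the names preadipocyte and adipocyte are the study's. Of 8 adipocyte markers 7 were in the table. Their sum was 46.5–79.0 FPKM in IMPA, 135–196 FPKM in IMA, 261–276 FPKM in SPA and 387–431 FPKM in SA, but most of it was the lipid droplet gene PLIN2. ADIPOQ and PLIN1, which define mature adipocytes, did not exceed 0.596 and 0.438 FPKM in any library, and PPARG did not exceed 1.26 FPKM. The 6 proliferation markers summed to 76.9–97.3 FPKM in IMPA, 75.9–90.0 FPKM in IMA, 29.8–36.4 FPKM in SPA and 136–153 FPKM in SA. Muscle markers differed between IMA and IMPA, proliferation markers between SA and SPA, and adipocyte markers in both depots, each at the smallest p that a two-sided exact permutation test of 5 libraries against 5 can give (0.00794, or 0.0129 adjusted over 52 tests). In bulk RNA, fewer cells of a type and less RNA per cell cannot be told apart. Preadipocyte or stromal markers summed to 897–1240 FPKM in IMPA and 838–951 FPKM in IMA, and to 6269–6547 FPKM in SPA and 4656–4981 FPKM in SA. Most of this sum was DCN, with means of 5441 FPKM in SPA and 4120 FPKM in SA. The means of PDGFRA, PDGFRB and THY1 were also lower in SA than in SPA, while that of COL1A1 rose from 255 to 335 FPKM. DLK1 did not exceed 0.269 FPKM in any library. Smooth muscle or pericyte markers summed to 329–443 FPKM in IMPA, 253–351 FPKM in IMA, 89.6–98.2 FPKM in SPA and 133–146 FPKM in SA. Nearly all of this sum was ACTA2, and MYH11 and RGS5 did not exceed 0.110 and 0.0529 FPKM in any library. CSPG4 went the other way between the depots, with means of 1.68 FPKM in IMPA, 3.49 in IMA, 4.46 in SPA and 4.21 in SA. By the same exact permutation test the stromal sum differed between SA and SPA (p = 0.00794), with p = 0.0556 for IMA against IMPA, and the smooth muscle sum differed in both depots (p = 0.00794 and p = 0.0159). Leukocyte markers, with PTPRC at or near 0, were low but also differed on induction, at 4.42–8.38 FPKM in IMPA, 9.67–12.3 FPKM in IMA (exact p = 0.00794), 15.4–18.2 FPKM in SPA and 12.7–15.6 FPKM in SA (exact p = 0.0159). Most of the leukocyte sum was CD14, with means of 5.91 FPKM in IMPA, 9.93 in IMA, 14.5 in SPA and 13.0 in SA. CSF1R and AIF1 did not exceed 0.0806 and 0.0795 FPKM in any library. Endothelial markers summed to at most 1.19 FPKM in any library. The part of these markers in the results below was not tested.

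SLC38A2 was the most abundant of the transporters in every group, followed in the same order everywhere by SLC3A2, SLC1A5, SLC7A11, SLC38A1 and SLC7A5. SLC38A2 made up 41.8% ± 1.25 (SD, n = 5) of the summed FPKM of the 9 genes in IMPA, 40.0% ± 1.19 in IMA, 42.9% ± 1.42 in SPA and 32.0% ± 1.47 in SA. The sum of all 9 was 404 ± 6.83 FPKM in IMPA, 377 ± 8.59 FPKM in IMA, 403 ± 5.91 FPKM in SPA and 459 ± 9.11 FPKM in SA. At the lower end SLC7A1, SLC1A4 and SLC6A9 changed places, with SLC1A4 seventh of 9 in IMPA and last in SPA. The plot of levels by group shows these values for every library.

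**Figure D1:**
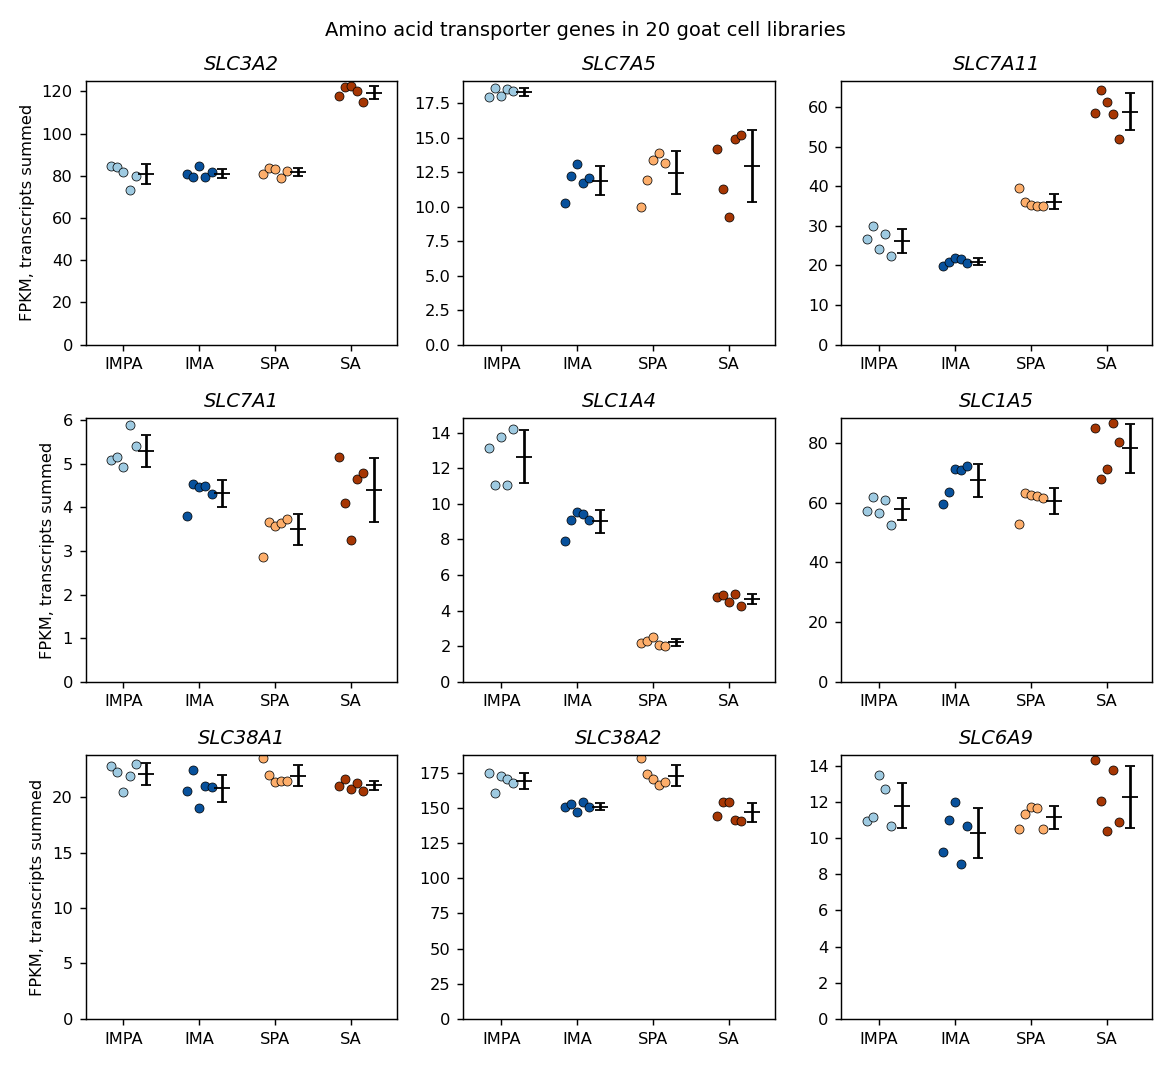
FPKM of each transporter gene (transcripts summed, y axis from 0) in the 5 libraries of IMPA, IMA, SPA and SA; points are libraries in the order 1 to 5, and the bar beside them gives the mean and SD. SLC3A2 and SLC7A11 stand highest in SA (119 and 58.9 FPKM), SLC1A4 and SLC7A5 highest in IMPA (12.6 and 18.3 FPKM), and SLC38A2 is lower in the adipocytes of both depots.

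On induction 6 of the 9 transporters were called in each depot. In the intramuscular cells 5 of the 9 genes were lower in IMA than in IMPA (SLC7A5, SLC1A4, SLC7A11, SLC7A1 and SLC38A2) and SLC1A5 was higher, at an adjusted p under 0.05 in limma. These 6 of 9 stand beside 60.1% of all 11432 genes called in either direction, 40.2% called lower and 19.9% called higher. The values of 5 members did not overlap between the groups, where 43.5% of all genes did not. In the subcutaneous cells 5 genes were higher in SA than in SPA (SLC1A4, SLC7A11, SLC3A2, SLC1A5 and SLC7A1) and SLC38A2 was lower, beside 52.1% of all genes called, 26.1% higher and 26% lower, and 5 members did not overlap, beside 38.8% of all genes. The median log2 fold change of the 9 genes was -0.18 in the intramuscular and 0.25 in the subcutaneous comparison, and that of all genes tested was -0.09 and -0.01. The share of intronic lncRNA in the FPKM sum (leaving out the single lncRNA named above) moved with the stages in the same directions, from 1.88–1.98% in IMPA to 1.48–1.86% in IMA and from 1.38–1.75% in SPA to 1.91–2.03% in SA, with no overlap in either depot (exact permutation p = 0.00794 for both). Its part in the changes was not tested. With the mRNA values scaled to the same sum in each library, the calls over all genes in the subcutaneous comparison went from 2982 higher and 2975 lower to 2327 higher and 4052 lower.

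The difference between the 2 changes was tested as an interaction in a fit of all 20 libraries, written as the subcutaneous change minus the intramuscular one. It was called for 6 of the 9 genes, always in the positive direction, beside 55.3% of all genes called in either direction, 34.6% in the positive and 20.7% in the negative. The share of members called, 6 of 9, was thus near that of all genes. Over all genes the calls were 3951 positive and 2368 negative, and 3221 and 3027 after quantile normalization. SLC1A4, SLC7A11, SLC7A5, SLC3A2, SLC7A1 and SLC6A9 were called, with log2 differences of 1.26, 0.99, 0.63, 0.53, 0.50 and 0.30. SLC1A5, SLC38A1 and SLC38A2 were not called, at log2 differences of 0.14, 0.03 and -0.07 with 95% intervals of -0.07 to 0.35, -0.10 to 0.15 and -0.18 to 0.04.

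**Figure D2:**
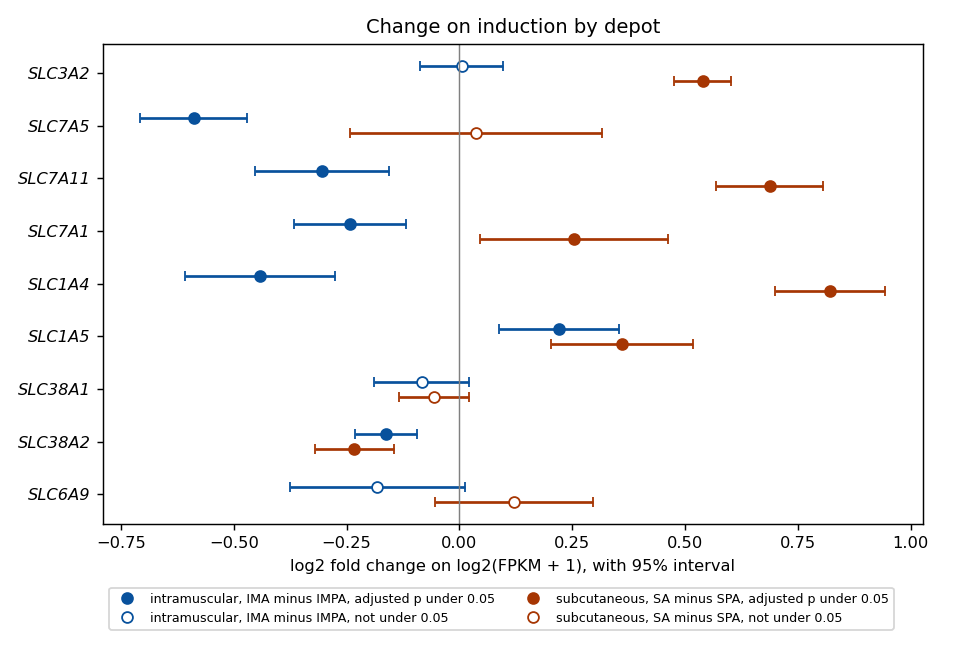
Log2 fold change on log2(FPKM + 1) with its 95% interval (x axis) for each transporter on induction, in the intramuscular cells (blue, IMA minus IMPA, n = 5 and 5) and the subcutaneous cells (brown, SA minus SPA, n = 5 and 5); filled points have a limma adjusted p under 0.05. SLC1A4 and SLC7A11 lie on opposite sides of 0 in the 2 depots (-0.44 and 0.82, -0.30 and 0.69), while SLC1A5 and SLC38A2 lie on the same side.

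SLC3A2 (gene ID 102187568), the heavy chain, was level in 3 groups and higher in SA. Its FPKM values in libraries 1 to 5 were 84.7, 84.2, 82.0, 73.3 and 80.1 in IMPA and 80.7, 79.4, 84.4, 79.3 and 81.7 in IMA. In the subcutaneous libraries they were 81.0, 83.6, 83.3, 79.0 and 82.4 in SPA and 118, 122, 122, 120 and 115 in SA. Every SA library was above all 15 others, and the other groups overlapped. The rise from 81.9 ± 1.92 FPKM in SPA to 119 ± 3.04 FPKM in SA was 45.8%, or 0.54 ± 0.03 (SE) on the log2 scale (limma adjusted p = 1.6e-08). In the intramuscular cells the log2 fold change was 0.01 with a 95% interval of -0.09 to 0.10, and SPA against IMPA gave 0.02 with an interval of -0.07 to 0.11. SA was also higher than IMA, by 0.55 ± 0.04 (limma adjusted p = 4.5e-09), and the interaction was 0.53 ± 0.05 (limma adjusted p = 1.8e-08).

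SLC7A11 (gene ID 102188162), the cystine carrier, separated all 4 groups. It measured 26.8, 30.1, 24.2, 27.9 and 22.5 FPKM in IMPA and 19.8, 21.0, 21.9, 21.6 and 20.6 FPKM in IMA. In the subcutaneous libraries it measured 39.5, 36.0, 35.3, 34.9 and 35.0 FPKM in SPA and 58.6, 64.4, 61.2, 58.2 and 51.9 FPKM in SA. The order SA, SPA, IMPA, IMA held with no overlap between neighbours, although IMPA5 and the highest IMA library lay close, at 22.5 and 21.9 FPKM. On induction it fell by 20.1% of the mean in the intramuscular cells, a log2 change of -0.30 ± 0.07 (limma adjusted p = 0.0022), and rose by 62.9% in the subcutaneous cells, a log2 change of 0.69 ± 0.05 (limma adjusted p = 5.5e-07). The interaction was 0.99 ± 0.09 (limma adjusted p = 8.7e-09). Between the depots SPA exceeded IMPA by 0.45 ± 0.07 (limma adjusted p = 6.9e-05) and SA exceeded IMA 2.80-fold, by 1.44 ± 0.05 on the log2 scale (limma adjusted p = 8.6e-12). The transcript XM_005691243.3 carried 98.0% of its FPKM over the 20 libraries.

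SLC7A5 (gene ID 102186985), the leucine carrier, was highest in IMPA. Its FPKM values were 18.0, 18.7, 18.1, 18.6 and 18.4 in IMPA and 10.2, 12.3, 13.1, 11.7 and 12.1 in IMA. They were 9.98, 11.9, 13.4, 13.9 and 13.2 in SPA and 14.2, 11.3, 9.24, 14.9 and 15.2 in SA. All IMPA libraries lay above the other 15, which overlapped among IMA, SPA and SA. SLC7A5 fell by 35.1% of the mean on intramuscular induction (log2 change -0.59 ± 0.05, limma adjusted p = 3.2e-06) and was lower in SPA than in IMPA (-0.53 ± 0.07, limma adjusted p = 2.3e-05). SA and SPA gave a log2 fold change of 0.04 with a 95% interval of -0.24 to 0.32, an interval that holds changes in either direction. The SDs of 1.58 FPKM in SPA and 2.59 FPKM in SA were wider than the 0.303 FPKM of IMPA. The interaction was 0.63 ± 0.15 (limma adjusted p = 0.0011).

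The heavy chain and its light chains were set beside each other as FPKM per library. Of the light chains, 6 were in the table, and SLC7A11, SLC7A5, SLC7A6 and SLC7A7 made up nearly all of their sum. That sum was 52.1 ± 3.08 FPKM in IMPA, 40.3 ± 2.22 FPKM in IMA, 54.2 ± 0.608 FPKM in SPA and 77.3 ± 2.88 FPKM in SA. SLC7A11 was 50.3% of it in IMPA, 52.1% in IMA, 66.7% in SPA and 76.1% in SA, while SLC7A5 was 35.3%, 29.5%, 23.1% and 16.8%. The ratio of SLC3A2 to the light-chain sum was 1.56 ± 0.126 in IMPA, 1.51 ± 0.0448 in SPA and 1.55 ± 0.0459 in SA, with overlapping ranges. In IMA it was 2.02 ± 0.102, and its lowest library, at 1.94, was above the highest of the other groups, at 1.67 in IMPA. The light-chain sum was thus higher in SA than in SPA by nearly the factor of the heavy chain, and lower in IMA than in IMPA at a level heavy chain. The ratio was taken as a description, with no test.

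**Figure D3:**
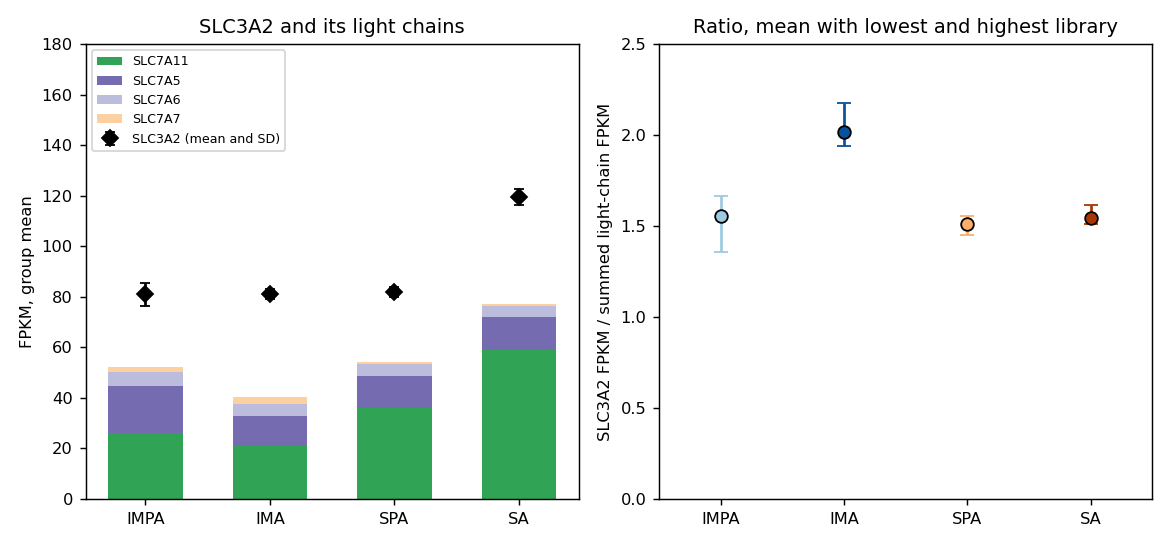
Left, mean FPKM of the light chains SLC7A11, SLC7A5, SLC7A6 and SLC7A7 (stacked bars) and of SLC3A2 (diamonds, mean and SD, n = 5) in the 4 groups; the 2 remaining light chains are too low to be drawn. Right, ratio of SLC3A2 to the summed light chains per library, as the mean with the lowest and highest library; the ratio is near 1.5 in IMPA, SPA and SA and 2.02 in IMA.

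SLC7A1 (gene ID 102187237), the arginine and lysine carrier, was low in all groups. It measured 5.08, 5.16, 4.94, 5.90 and 5.41 FPKM in IMPA and 3.80, 4.55, 4.48, 4.48 and 4.30 FPKM in IMA. It measured 2.87, 3.66, 3.58, 3.65 and 3.73 FPKM in SPA and 5.15, 4.10, 3.26, 4.65 and 4.78 FPKM in SA. IMPA was above IMA and above SPA without overlap, whereas SA3 lay inside the SPA range and SA1 inside that of IMPA. The gene fell by 18.4% of the mean in the intramuscular cells (log2 change -0.24 ± 0.06, limma adjusted p = 0.0031) and was lower in SPA than in IMPA (-0.49 ± 0.06, limma adjusted p = 1.7e-05). In the subcutaneous cells the log2 change was 0.25 ± 0.10 (limma adjusted p = 0.042). That call was lost in 16 of 22 alternative settings, among them leaving out SPA1, the lowest library (0.20, limma adjusted p = 0.099), and the sign turned when the most abundant transcript replaced the sum (-0.15, limma adjusted p = 0.79). The interaction was 0.50 ± 0.11 (limma adjusted p = 0.00094), and SA against IMA gave 0.01 with a 95% interval of -0.18 to 0.20.

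The FPKM of SLC7A1 is split over 4 transcripts, and the split was less even between libraries than the sum. XM_018056608.1, the most abundant, was listed at 0 in SA3, where XM_018056611.1 held 57.7% of the gene. XM_018056611.1 held 0.769% to 2.27% in the 5 SPA libraries but up to 23.8% in IMPA and 36.9% in IMA. The assignment of fragments among overlapping transcripts of a gene is an estimate, and the transcripts were not tested.

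SLC1A4 (gene ID 102179486), an exchanger of alanine, serine and cysteine, also separated all 4 groups. It measured 13.1, 11.1, 13.7, 11.1 and 14.2 FPKM in IMPA and 7.89, 9.07, 9.53, 9.45 and 9.09 FPKM in IMA. It measured 2.19, 2.28, 2.52, 2.08 and 1.99 FPKM in SPA and 4.75, 4.90, 4.51, 4.94 and 4.28 FPKM in SA. The 4 groups followed the order IMPA, IMA, SA, SPA with no overlap. SLC1A4 fell on intramuscular induction by 28.7% of the mean (log2 change -0.44 ± 0.08, limma adjusted p = 0.00036) and rose 2.11-fold on subcutaneous induction (0.82 ± 0.06, limma adjusted p = 1.4e-07), with an interaction of 1.26 ± 0.10 (limma adjusted p = 4.1e-10). Before induction the mean was 5.71-fold lower in SPA than in IMPA, and after induction it was 1.93-fold lower in SA than in IMA. On log2(FPKM + 1), which understates the change of a low gene, these differences were -2.08 ± 0.07 (limma adjusted p = 6.1e-11) and -0.82 ± 0.06 (limma adjusted p = 1.5e-08).

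SLC1A5 (gene ID 102176550), the glutamine exchanger, was higher after induction in both depots. It measured 57.1, 61.8, 56.5, 60.8 and 52.5 FPKM in IMPA and 59.6, 63.6, 71.1, 71.0 and 72.3 FPKM in IMA. It measured 52.9, 63.2, 62.6, 62.4 and 61.5 FPKM in SPA and 84.9, 67.9, 71.3, 86.6 and 80.2 FPKM in SA. SA lay above SPA without overlap, while IMA1 fell inside the IMPA range. The rise was 16.9% in the intramuscular cells (log2 change 0.22 ± 0.06, limma adjusted p = 0.0083) and 29.2% in the subcutaneous cells (0.36 ± 0.07, limma adjusted p = 0.0013). SA exceeded IMA by 0.21 ± 0.07 (limma adjusted p = 0.023), a call that was lost in 5 of 22 alternatives, including without IMA1 (limma adjusted p = 0.063), IMA2 (0.055), SA1 (0.058) or SA4 (0.061). SPA against IMPA gave 0.07 with an interval of -0.06 to 0.19, and 0.11 without SPA1 (limma adjusted p = 0.042).

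SLC38A2 (gene ID 102191114), the adaptive system A carrier, was lower after induction in both depots by a similar amount. It measured 175, 160, 172, 170 and 168 FPKM in IMPA and 150, 152, 147, 154 and 150 FPKM in IMA. It measured 185, 174, 170, 166 and 168 FPKM in SPA and 144, 154, 154, 141 and 140 FPKM in SA. All 10 preadipocyte libraries lay above all 10 adipocyte libraries. The fall was 10.8% of the mean in the intramuscular cells (log2 change -0.16 ± 0.03, limma adjusted p = 0.00082) and 15.0% in the subcutaneous cells (-0.23 ± 0.04, limma adjusted p = 0.00042). The depots were not separated at either stage, with 0.03 (interval -0.05 to 0.11) for SPA against IMPA and -0.04 (interval -0.12 to 0.04) for SA against IMA.

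SLC38A1 (gene ID 102191403), the related system A carrier that the RefSeq gene table lists next to SLC38A2 with 0 genes between, was not called in any of the 5 tests. Its lowest and highest libraries were 20.4 and 23.0 FPKM in IMPA, 19.0 and 22.4 in IMA, 21.4 and 23.5 in SPA and 20.6 and 21.7 in SA. All groups overlapped, and the log2 fold changes were -0.08 (95% interval -0.19 to 0.02) in the intramuscular and -0.06 (-0.13 to 0.02) in the subcutaneous cells. With the mRNA values scaled to equal sums, the subcutaneous change was -0.12 and was called (limma adjusted p = 0.0074).

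In single libraries the FPKM assigned to the 7 transcripts of SLC38A1 shifted among them. The assignment of fragments among overlapping transcripts is an estimate here too, and the transcripts were not tested. XM_005680051.3 carried 73.7% of the gene over the 20 libraries. It stood at 9.56 FPKM in IMA1 and 9.26 FPKM in SPA2, against 14.9 to 16.6 FPKM in the other IMA and 16.1 to 17.9 FPKM in the other SPA libraries. In those libraries XM_018047892.1 was at 6.51 and 9.46 FPKM, where the other SPA libraries had 2.52 to 3.54 FPKM. IMA3 and SA4 showed another exchange, with XM_018047892.1 down to 0.354 and 0.555 FPKM and XM_018047894.1 up to 2.67 and 2.39 FPKM. The gene sums in IMA1 and SPA2 were 20.5 and 22.0 FPKM, inside the range of their groups. The 4 libraries with a shift came from IMA, SPA and SA.

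**Figure D4:**
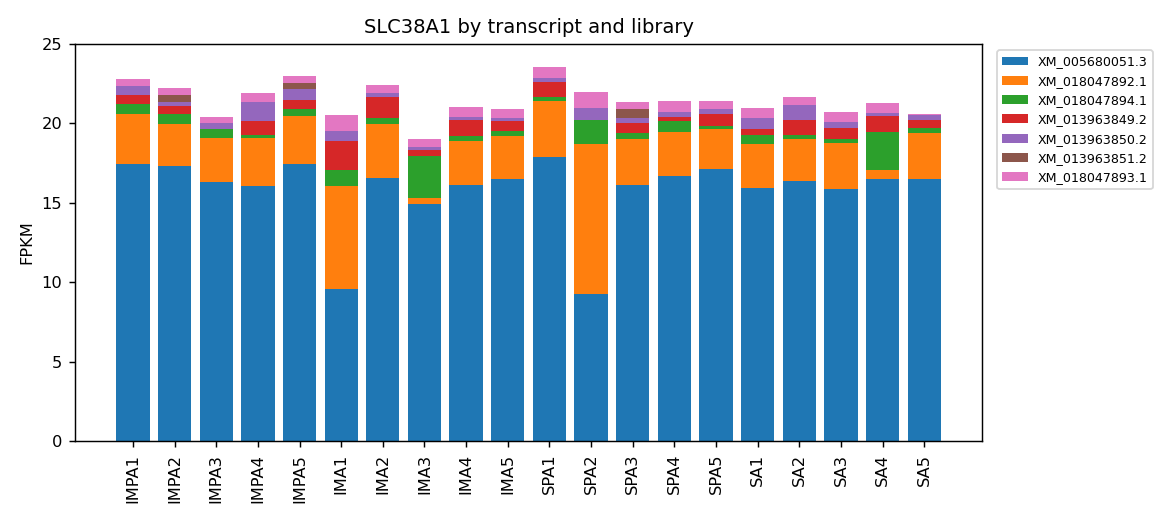
FPKM of SLC38A1 in the 20 libraries (x axis, group and library number), stacked by its 7 transcripts. The bars end between 19.0 and 23.5 FPKM, while XM_005680051.3 (lowest segment) drops to 9.56 FPKM in IMA1 and 9.26 FPKM in SPA2.

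SLC6A9 (gene ID 102190843), the glycine carrier, varied more within groups than between them. It measured 10.96, 11.18, 13.5, 12.7 and 10.65 FPKM in IMPA and 9.23, 11.0, 12.02, 8.59 and 10.7 FPKM in IMA. It measured 10.5, 11.3, 11.7, 11.7 and 10.5 FPKM in SPA and 14.3, 12.1, 10.4, 13.8 and 10.9 FPKM in SA. Every pair of groups overlapped. The log2 fold change was -0.18 (95% interval -0.38 to 0.01) in the intramuscular and 0.12 (-0.05 to 0.30) in the subcutaneous cells, neither of them called. Without IMA3, the highest IMA library, the intramuscular change was -0.23 (limma adjusted p = 0.034). SA exceeded IMA by 0.23 ± 0.10 and the interaction was 0.30 ± 0.12 (limma adjusted p = 0.045 for both), but the first call was lost in 13 of 22 alternatives and the second in 16 of 31, with a turn of sign in another. The transcript XM_018043169.1 carried 84.6% of the gene, and the other 6 the rest.

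Between the depots, 4 of the 9 genes were called before induction (SLC7A11 higher in SPA, and SLC1A4, SLC7A5 and SLC7A1 lower), beside 75.1% of all genes called, 32.9% higher and 42.3% lower. After induction 5 were called (SLC7A11, SLC3A2, SLC6A9 and SLC1A5 higher in SA, SLC1A4 lower), beside 72.4% of all genes called, 43.4% higher and 29% lower. Without overlap were 4 genes before induction and 3 after, where 63.4% and 58.6% of all genes were. The shares of members called were below those of all genes in both comparisons. Depot cannot be told apart from the skeletal muscle sum or the smooth muscle sum (mostly ACTA2), both higher in every intramuscular library. Nor can it be told apart from the stromal sum (mostly DCN) or the adipocyte sum (mostly PLIN2), both higher in every subcutaneous library. The low leukocyte and endothelial sums were also higher in every subcutaneous library. The proliferation sum was lower in every SPA than in any IMPA library, and higher in every SA than in any IMA library. These sums cannot be told apart from depot either. The share of reads mapped was higher in every intramuscular library than in all subcutaneous libraries of its stage. That share cannot be told apart from depot either.

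Other amino acid carriers differed between the depots in both directions. Of the 14 other SLC6, SLC36 and SLC16A10 carriers in the table, 6 were tested. Before induction 3 were higher and 3 lower in SPA than in IMPA, beside 32.9% and 42.3% of all genes. SLC6A6, the taurine carrier, was at 16.2 ± 3.06 FPKM in IMPA and 2.79 ± 0.171 FPKM in SPA (log2 change -2.17, limma adjusted p = 7.5e-10). SLC16A10, a carrier of aromatic amino acids, was at 7.19 ± 0.549 and 0.963 ± 0.143 FPKM (-2.06, limma adjusted p = 1.4e-11), and SLC6A13 was at 3.64 ± 0.625 FPKM in IMPA and listed at 0 in every SPA library. The 3 higher in SPA were SLC6A18, at 0.0090 ± 0.0090 FPKM in IMPA and 2.00 ± 0.248 FPKM in SPA (1.57, limma adjusted p = 1.2e-10), SLC36A4 (0.64) and SLC6A8 (0.50). On induction 2 of the 6 rose and 2 fell in the intramuscular cells, and 2 fell and 0 rose in the subcutaneous cells. Of all genes, 19.9% rose and 40.2% fell in the intramuscular cells, and 26.1% rose and 26% fell in the subcutaneous cells.

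Of the 4 other cationic carriers, SLC7A2 and SLC7A3 were tested. SLC7A3 rose from 1.57 ± 0.255 FPKM in SPA to 6.58 ± 0.803 FPKM in SA (1.56 ± 0.09, limma adjusted p = 1.9e-08), and SLC7A2 from 0.853 ± 0.123 to 1.28 ± 0.0618 FPKM (0.30 ± 0.05, limma adjusted p = 0.00031). Neither was called in the intramuscular cells, and both interactions were called (1.42 and 0.40), beside 55.3% of all genes. Among 7 tested SLC38 genes 3 rose and 3 fell in each depot. Of all genes, 19.9% rose and 40.2% fell in the intramuscular cells, and 26.1% rose and 26% fell in the subcutaneous cells. SLC38A4, another system A carrier, rose from 11.2 ± 0.373 to 18.0 ± 0.833 FPKM in the intramuscular cells (0.65, limma adjusted p = 1.6e-07) and from 22.2 ± 0.548 to 30.5 ± 1.71 FPKM in the subcutaneous cells (0.44, limma adjusted p = 1.9e-06), opposite in direction to SLC38A2. SLC38A9, a lysosomal amino acid sensor, rose in both (0.40 and 0.35). Of 6 tested partners and relatives of the system L carriers, 1 rose and 2 fell in the intramuscular cells, among them SLC3A1, the heavy chain of another carrier pair (-0.77). In the subcutaneous cells 2 rose and 0 fell. These counts are to be read against the same shares of all genes. SLC1A3, the 1 tested glutamate carrier of 5 in the table, fell in both depots (-0.74 and -0.13).

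All 23 listed genes of the amino acid response (ATF4-related) were tested. In IMA 12 were lower, 3 higher and 8 not called against IMPA, beside 40.2% of all genes lower and 19.9% higher, with a median log2 fold change of -0.20 beside -0.09 for all genes. In SA 19 were higher and 3 lower than in SPA, beside 26.1% and 26% of all genes, with a median of 0.41 beside -0.01 for all genes. CTH, which makes cysteine from cystathionine, went from 18.8 ± 2.12 to 9.95 ± 2.55 FPKM in the intramuscular cells (-0.87 ± 0.13, limma adjusted p = 0.00012) and from 7.18 ± 0.954 to 21.5 ± 2.08 FPKM in the subcutaneous cells (1.46 ± 0.09, limma adjusted p = 3.6e-08). The serine synthesis genes PSAT1 and PSPH changed by -0.66 and -0.58 in the intramuscular and by 1.35 and 1.37 in the subcutaneous cells. Against the direction of the list, STC2, DDIT4 and VLDLR rose in IMA (0.58, 0.49 and 0.34) and CEBPB, DDIT4 and EIF4EBP1 fell in SA (-0.36, -0.35 and -0.21). DDIT4 is an inhibitor of mTORC1, and EIF4EBP1 a repressor of translation. The interaction was called positive for 18 genes and negative for 1, beside 34.6% and 20.7% of all genes.

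The cytosolic aminoacyl-tRNA synthetases, which load the imported amino acids onto tRNA, were counted in the same way. Of 20 tested, 16 were lower and 1 higher in IMA than in IMPA, and 13 were higher and 3 lower in SA than in SPA. Of all genes, 40.2% were lower and 19.9% higher in the first comparison, and 26.1% were higher and 26% lower in the second. The medians of the list were -0.26 and 0.29, beside -0.09 and -0.01 for all genes. The 3 with the largest falls in IMA were VARS, FARSA and SARS (-0.48, -0.48 and -0.43), and the 3 with the largest rises in SA were GARS, WARS and MARS (0.85, 0.84 and 0.67). DARS went against both, at 0.27 in the intramuscular and -0.15 in the subcutaneous cells. The interaction was called positive for 17 and negative for 2, beside 34.6% and 20.7% of all genes. Before induction 15 of the 20 were lower in SPA than in IMPA and 0 were higher, beside 42.3% and 32.9% of all genes. The proliferation markers moved with both lists in the subcutaneous cells, where their sum was 29.8–36.4 FPKM in SPA and 136–153 FPKM in SA. In the intramuscular cells their sums overlapped between the stages.

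**Figure D5:**
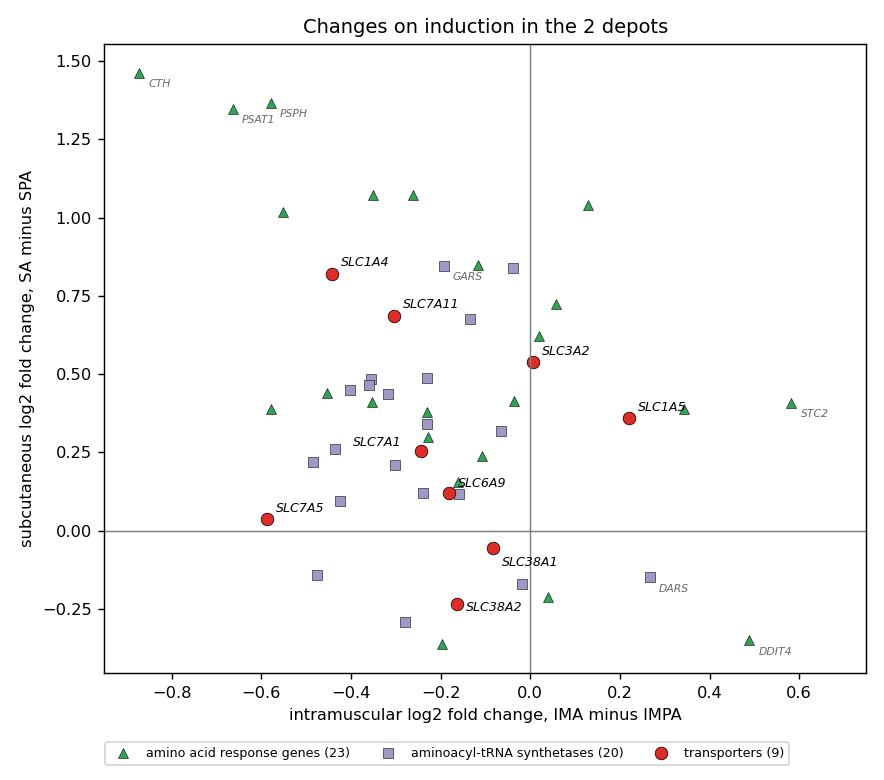
Log2 fold change on log2(FPKM + 1) on induction in the intramuscular cells (x axis, IMA minus IMPA) against that in the subcutaneous cells (y axis, SA minus SPA), for the 9 transporters (red circles), 23 amino acid response genes (green triangles) and 20 aminoacyl-tRNA synthetases (purple squares). Most points lie at the upper left, with CTH at -0.87 and 1.46. Points below 0 on the y axis include SLC38A1, SLC38A2, DDIT4, CEBPB, EIF4EBP1, QARS, KARS and DARS.

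Cystine brought in by SLC7A11 is used for glutathione. Of 12 genes of glutathione and NRF2, 3 rose and 7 fell in IMA, beside 19.9% and 40.2% of all genes, and 7 rose and 3 fell in SA, beside 26.1% and 26%. The list's medians were -0.19 and 0.18, those of all genes -0.09 and -0.01. GCLM, the regulatory subunit of the first enzyme of glutathione synthesis, fell in IMA from 20.8 ± 0.702 to 13.2 ± 0.653 FPKM (-0.62, limma adjusted p = 2.6e-07), while GSS, the second enzyme, rose in SA from 10.0 ± 0.789 to 13.7 ± 0.453 FPKM (0.41, limma adjusted p = 3.5e-05). HMOX1, an NRF2 target, fell in both depots (-1.80 and -1.69), and NFE2L2, which encodes NRF2, rose in IMA (0.88). SPA was higher than IMPA in 8 of the 12 and lower in 2, beside 32.9% and 42.3% of all genes, and SA was higher than IMA in 10 and lower in 1, beside 43.4% and 29%. The medians were 0.40 and 0.51, and NQO1 was higher by 1.37 and 1.48.

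Leucine and arginine are sensed by mTORC1 on the lysosome. Of 23 genes of that machinery, 6 rose and 13 fell in IMA and 5 rose and 5 fell in SA, with medians of -0.16 and -0.06. Beside them 19.9% of all genes rose and 40.2% fell in IMA, and 26.1% rose and 26% fell in SA. Between SA and IMA 10 of the 23 were higher and 5 lower, beside 43.4% and 29% of all genes. LAMTOR4, RRAGA and RRAGC were higher in SA (0.69, 0.57 and 0.38), and RRAGD, RRAGB and SESN3 lower (-2.98, -1.34 and -0.98). Among 14 tested enzymes that use the carried amino acids, 2 rose and 9 fell in IMA and 6 rose and 6 fell in SA, with medians of -0.20 and -0.09, to be read against the same shares of all genes. ODC1, the first enzyme of polyamine synthesis, and BCAT1, which transaminates leucine, rose in SA (0.74 and 0.57), and ARG2, which splits arginine, fell (-1.19).

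The genes with the profile most like each transporter were found by the root mean square difference of log2(FPKM + 1), each gene centred on its mean over the 20 libraries. The 20 libraries fall into 4 groups, so a small difference mainly says that the group means are alike. ATF4 was nearest to SLC7A1 (0.0932 log2 units), and BRI3BP followed. The means of ATF4 were 103 FPKM in IMPA, 92.5 in IMA, 83.7 in SPA and 93.8 in SA. MYBBP1A and VARS were nearest to SLC7A5 (0.0998 and 0.102), NUDT1 and EPS8 to SLC7A11 (0.147 and 0.155), and SGO2 and POT1 to SLC3A2 (0.0525 and 0.0636). For SLC1A4 they were ST6GALNAC3 and TMEM123 (0.123 and 0.125), for SLC1A5 CLDND1 and GPX7 (0.0950 and 0.102), for SLC38A2 ZNF207 and AP2M1 (0.0496 and 0.0510) and for SLC6A9 DESI2 and LOC102186459 (0.117 and 0.120). These distances are to be read against the members' own variation. Around their own means SLC7A1, SLC7A5, SLC7A11 and SLC3A2 varied by 0.210, 0.284, 0.551 and 0.243. SLC1A4, SLC1A5, SLC38A2 and SLC6A9 varied by 0.802, 0.196, 0.111 and 0.160. SLC38A1 varied by only 0.0655 around its own mean, and its nearest genes, LOC102175116 and PCF11, were at 0.0526 and 0.0557.

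Among the stage results, an ordinary linear model with the library covariate of Ballgown left 1 of the 9 genes called in the intramuscular cells and 3 in the interaction. In the intramuscular comparison 84.1% of the variance of that covariate lay between the groups, so covariate and stage can hardly be told apart there. The calls of SLC1A4, SLC3A2 and SLC7A11 in SA against SPA, in SA against IMA and in the interaction held in every alternative.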

How the data were processed

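Total RNA of 20 goat cell libraries (strand-specific, dUTP) was sequenced by the authors, who aligned the reads with HISAT2 2.0.4 and calculated the deposited FPKM per transcript with StringTie 1.3.1, Ballgown and Cuffdiff (which of these gave the final values is not stated); their processing notes also list GATK 2.6-5. Nothing was realigned. No counts were given, so no interval for a single library could be computed, and a low value has an unknown depth. Transcripts of a symbol were summed. The 11432 genes that averaged 1 FPKM or more across libraries were used as log2(FPKM + 1), with no further scaling. Log2 fold changes are on that scale, while percent changes and values written as -fold are ratios of mean FPKM. Each pair of groups was compared in its own fit of 10 libraries with limma 3.58.1 (moderated test with variance trend, R 4.3.3), and the interaction of stage and depot over 20. P-values were adjusted by Benjamini-Hochberg over all genes tested, and called means an adjusted p under 0.05. SE and 95% intervals come from the same fits. Summaries were made in Python 3.11.15 with pandas 2.3.3, numpy 2.4.6 and scipy 1.17.1, and figures with matplotlib 3.10.9. The pairwise fits and the permutation test were tried on simulated data with independent noise and, for the fits, few changed genes. The simulation held neither the large share of called genes nor the library differences seen here, so it does not cover them.

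The members, gene lists and markers were chosen with earlier results of these data known. Text names all 9 members, from each list at most 3 genes per direction and comparison (largest absolute log2 change among the called), and the 2 nearest profiles of each member; markers are named as chosen. Alternatives were other filters (a minimum mean of 0.1 FPKM, none), a pseudocount of 0.1, equal mRNA sums, upper-quartile scaling, quantile normalization, no variance trend, an ordinary linear model with a library covariate, the most abundant transcript, all 4 groups in 1 fit, a replicate block, and leaving out each library or SPA1 with SA5. The lncRNA tables hold none of the members. Of the members, 9 of 9 gene IDs were found in RefSeq's gene table, whose assembly differs from that of the files, so no coordinates are given. Promoter motifs were planned but not searched, as no promoter sequences were used here.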

Additional observations from a re-analysis of the deposited data

Results flagged for a closer look

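In 68 sets of 5 libraries (members, their transcripts and library measures), 7 had a library far from the other 4 by Dixon's ratio above 0.71, where chance alone flags about 1 set in 20. SPA1 accounted for 4 of them. It was at 2.87 FPKM for SLC7A1 (other SPA libraries 3.58 to 3.73), 39.5 FPKM for SLC7A11 (34.9 to 36.0), 52.9 FPKM for SLC1A5 (61.5 to 63.2) and 23.5 FPKM for SLC38A1 (21.4 to 22.0). Over all 11432 genes, SPA1 was the outlying library of its group for 2.71%, the second highest share after IMA3 (3.27%), and the other 18 libraries had 0.551% to 1.77%. Without SPA1 the subcutaneous changes were called as before for SLC3A2, SLC7A11, SLC1A4, SLC1A5 and SLC38A2, and not for SLC7A1. IMA1 was at 7.89 FPKM for SLC1A4 (other IMA libraries 9.07 to 9.53). The transcript XM_005680051.3 of SLC38A1 was at 9.56 FPKM in IMA1 (others 14.9 to 16.6) and 9.26 FPKM in SPA2 (others 16.1 to 17.9), at an unremarkable gene sum. The split of a gene among its transcripts is an estimate.

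The change on induction differed between the depots for 6 of the 9 genes, tested as the interaction of stage and depot in limma, as a difference of log2 changes (subcutaneous minus intramuscular). Of all 11432 genes 55.3% were called, so the share of members was near that of all genes. The difference was 1.26 for SLC1A4, 0.99 for SLC7A11, 0.63 for SLC7A5, 0.53 for SLC3A2, 0.50 for SLC7A1 and 0.30 for SLC6A9. The last had a limma adjusted p of 0.045, and its call was lost in 16 of 31 alternatives.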

How the results depend on the processing

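Of 1062 alternative values of the members, 948 kept direction and side of the threshold, 62 lost a call, 10 gained one and 42 turned in sign. The ordinary linear model with the library covariate left 1 member and 1397 genes called for IMA against IMPA (6 and 6867 before), 1 and 1015 for SPA against IMPA (4 and 8588), and 3 and 3802 for the interaction (6 and 6319). Between the groups of these 2 pairs lay 84.1% and 98.8% of the covariate's variance. For SA against IMA, 5 members were called, 3 without a filter, and 3 to 6 with a library left out (3 without IMA1, SA1 or SA4). Sign turns with that model were -0.21 for SLC7A5 and -0.043 for SLC6A9 in SA against SPA, -0.11 for SLC3A2, 0.49 for SLC38A1 and -0.27 for SLC38A2 in SPA against IMPA, -0.00948 for SLC38A1 in SA against IMA, and -0.033 for SLC7A1, -0.025 for SLC7A5, -0.28 for SLC1A5, 0.040 for SLC38A2 and -0.053 for SLC6A9 in the interaction. With the most abundant transcript they were -0.15 for SLC7A1 and 0.10 for SLC38A1 in SA against SPA, 0.12 for SLC6A9 in SPA against IMPA and -0.12 for SLC7A1 in SA against IMA. Equal mRNA sums gave -0.029 for SLC3A2 in IMA against IMPA, -0.028 for SLC7A5 in SA against SPA, 0.017 for SLC38A1 in SPA against IMPA and -0.00733 for it in the interaction. Quantile normalization gave 0.033 and -0.030, and upper-quartile scaling 0.036 and -0.031, for SLC38A1 in these 2, and upper-quartile scaling -0.00215 for SLC7A1 in SA against IMA. Without SPA1 and SA5, SLC7A5 was at -0.094 in SA against SPA and SLC7A1 at -0.020 in SA against IMA. With each library left out in turn, the range was -0.029 to 0.022 for SLC3A2 in IMA against IMPA, -0.035 to 0.14 for SLC7A5 in SA against SPA, -0.015 to 0.036 for SLC3A2 and -0.035 to 0.0060 for SLC38A1 in SPA against IMPA, -0.042 to 0.090 for SLC7A1 and -0.012 to 0.046 for SLC38A1 in SA against IMA, and -0.00331 to 0.054 for SLC38A1 in the interaction. Apart from SLC7A1 in SA against SPA and SLC7A1, SLC7A5 and SLC6A9 in the interaction, none of the values that turned had been called, and no turned value was called. The causes were not tested.

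Same-numbered libraries did not deviate together in all pairs (correlations of 0.0417 to 0.121 in the intramuscular and -0.242 to 0.122 in the subcutaneous comparison), and with a library number shared but no goat named the numbers were not taken as pairs. With the replicate number as a block, 6826 genes were called for IMA against IMPA, 5602 for SA against SPA, 8530 for SPA against IMPA, 8059 for SA against IMA and 6304 for the interaction. The members' calls lost were SLC7A1 in SA against SPA (adjusted p = 0.070), SLC6A9 in SA against IMA (0.101) and SLC6A9 in the interaction (0.059). In the intramuscular comparison 3 of 5 libraries correlated best with their own number, and in the subcutaneous 1 of 5.

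No counts were given, so depth limits for low genes such as SLC1A4 in SPA are not known.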
